A study of Mus musculus with 12 samples.

Results

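ACAT1 KO cells were compared with WT cells after LPS, with 3 libraries in each group, chosen by the genotype and treatment in their labels. These are 6 of the 12 libraries of the study, and the other 6 hold the same genotypes without stimulation. The cells were J774A.1, an established mouse macrophage line. All 6 libraries came from cells given 100 ng/ml LPS, the lipopolysaccharide of the outer membrane of gram-negative bacteria, for 2 hours. WT cells had been transfected with a Cas9-GFP vector that carried no guide. ACAT1 KO cells had received the same vector with a guide to exon 4 of Acat1. In both genotypes GFP-positive cells were sorted at a few cells per well and expanded as clonal populations, and 3 lines of each genotype were used. A difference between clones that arose during this cloning therefore cannot be told apart from a difference caused by the loss of Acat1. Counts were deposited for 17874 genes after LPS, and 16483 of them passed the filter on low counts and were tested.

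LPS is bound by TLR4 with its co-receptors CD14 and MD-2. The receptor then recruits the adaptor MyD88, which leads to NF-kB, AP-1 and the early inflammatory cytokines, and the adaptor TRIF, which leads through TBK1 to IRF3 and to interferon beta. Immediate early transcription factors and feedback inhibitors are induced within the first hours, and macrophages shift toward glycolysis over a longer time. ACAT1 is the mitochondrial acetoacetyl-CoA thiolase, which releases acetyl-CoA in the breakdown of ketone bodies and isoleucine.

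The guided exon of Acat1 is shown because it is the site that the knockout was made at. It lies on the minus strand of GRCm38 at chr9:53594694-53594789 and is exon 4 of the 12 exons of the annotated transcript used here. It is printed in the direction of transcription, with no part marked.
Acat1 exon 4: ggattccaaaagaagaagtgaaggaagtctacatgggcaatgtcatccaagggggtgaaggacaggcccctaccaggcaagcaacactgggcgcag
In the order of replicates 1 to 3, which holds for all values below, Acat1 was counted at 76.1, 84.8 and 58.2 CPM in WT and at 17.9, 16.7 and 17.2 CPM in ACAT1 KO libraries, where CPM is the count scaled to a common library size after TMM normalization. The 3 ACAT1 KO libraries lay below the 3 WT libraries (log2 fold change -2.08, standard error 0.13, adjusted p = 7.87e-04, quasi-likelihood test of edgeR, Benjamini-Hochberg adjusted, which is the test behind every adjusted p below). Reads of the whole transcript do not show the edited site itself.

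Totals after LPS ran from 96704955 to 167280149 counts per library. Replicates differed by far more than sampling noise, so that the spread between lines set the precision (common biological coefficient of variation 0.108). Of 33 macrophage identity genes tested, among them Cd14 and Itgam, the summed level was 13423 to 13998 CPM in WT and 14610.3 to 16266 CPM in ACAT1 KO libraries. This sum is carried by abundant genes and does not show single members. At an adjusted p under 0.05, 8 were higher and 3 lower (33.3%, against 15.1% over all genes), and log2 fold changes ran from -1.07 to 1.36. The T cell markers tested summed to 11.2 to 13.6 CPM, the neutrophil markers to 2.34 to 3.39 CPM and the B cell markers, of which nearly all was an immunoglobulin heavy chain gene, to 27.5 to 43.5 CPM over the 6 libraries. In bulk RNA, fewer cells of a type and less RNA per cell cannot be told apart. Among fibroblast and epithelial markers Pdgfra alone was tested, at 4.93 to 5.80 CPM in WT and 10.2 to 11.8 CPM in ACAT1 KO libraries. WT replicate 1 stood apart from the other WT libraries at stress and immediate early genes, and its values are given beside the results that they touch.

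At an adjusted p under 0.05, 2481 of the 16483 genes (15.1%) differed between ACAT1 KO and WT cells after LPS. In ACAT1 KO cells 977 of these (5.93%) were higher and 1504 (9.12%) lower. Most differences were small, with a median size of 0.47 on the log2 scale among the genes called, and 139 higher and 251 lower genes passed 1 on that scale. The median over all genes tested was -0.0041. The groups did not overlap at 6197 genes (37.6%), and with 3 lines against 3 an exact permutation test of a single gene cannot go below p = 0.1. The number of calls depended on single lines. Without ACAT1 KO replicate 2 it was 290 higher and 577 lower, without ACAT1 KO replicate 1 it was 352 and 668, without ACAT1 KO replicate 3 it was 387 and 647, and without WT replicate 2 it was 385 and 798. Across all 6 fits leaving out a library, 701 of the 2481 genes were called. The split between directions moved with gene length and base composition. With a trend on exon length and GC content removed from each library, 1153 genes were higher and 1085 lower. Genes with under 1 kb of exon had a median log2 fold change of 0.20, with 6.23% called higher and 1.29% lower, and genes with over 8 kb had a median of -0.098, with 4.14% higher and 19.7% lower. Of 1980 processed pseudogenes tested, whose reads can come from their parent genes, 141 were called higher and 7 lower, against 5.93% and 9.12% over all genes.

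Calls were not spread evenly over the genome. On chromosome 12 the median log2 fold change over 584 genes was -0.28, and 41.1% of them were called lower. On chromosome 2 from 90 Mb to its end the median over 712 genes was 0.28, and 36.5% were called higher. On chromosome 10 from 110 Mb to its end the median over 163 genes was -0.35, and 52.8% were called lower. The same stretches had medians of -0.25, 0.30 and -0.30 in unstimulated cells. Together they held 8.85% of the genes tested and 24.5% of the genes called, and outside them 704 genes were higher and 1170 lower, with a median of -0.0054. DNA copy number was not measured. Genes of immune and metabolic lists that lie on these stretches are named as such below, since their part in a list's count cannot be told apart from that of the stretch. Chromosome 15, which is counted outside the 3 stretches, was shifted to a smaller degree in both states. Its median over 638 genes was -0.12 after LPS and -0.094 without stimulation, and 17.7% were called lower and 2.19% higher. After LPS this shift rested in large part on WT replicate 1. The median over genes of log2 CPM from each gene's mean was 0.14, 0.013 and 0.032 in WT replicates 1 to 3. In ACAT1 KO replicates 1 to 3 it was -0.060, -0.095 and -0.028. Genes on chromosome 15, among them Itgb7 and Gramd4, are not marked below.

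**Figure D1:**
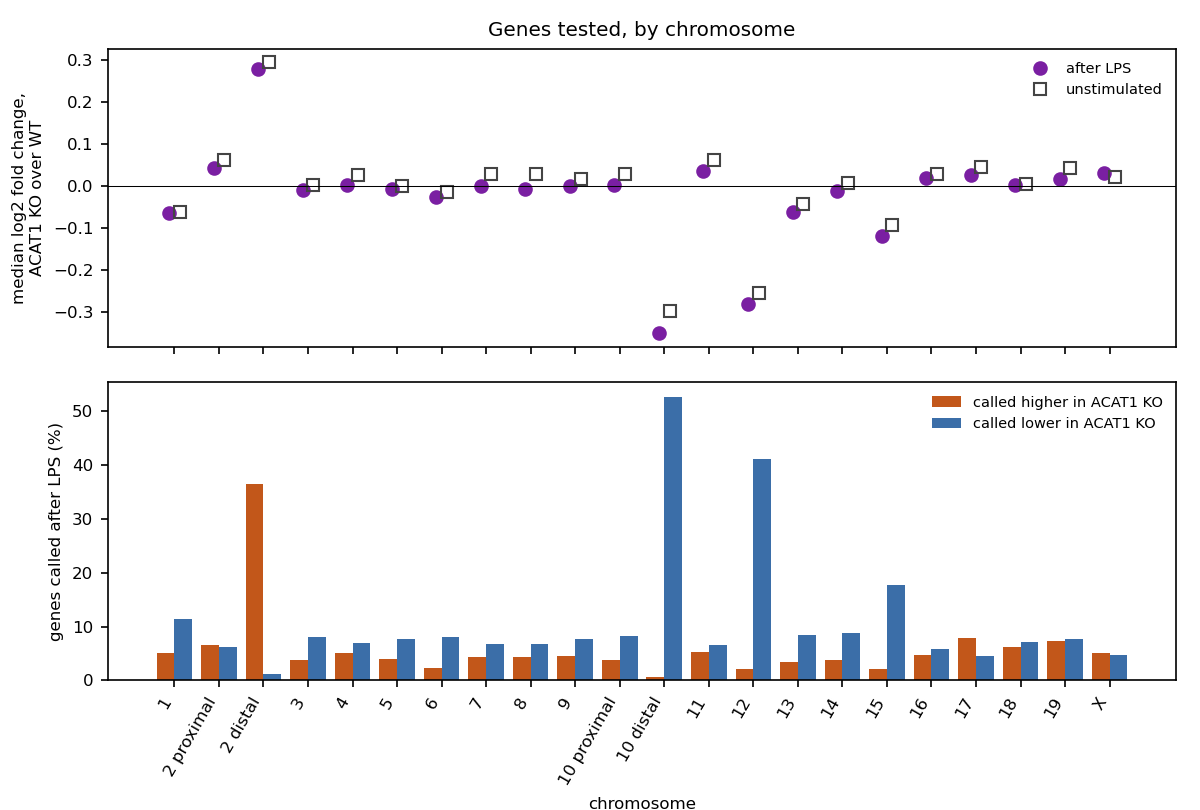
Median log2 fold change of ACAT1 KO over WT for the genes tested on each chromosome after LPS (filled circles) and without stimulation (open squares), and below it the percentage of genes called higher and lower after LPS. Chromosome 2 is divided at 90 Mb and chromosome 10 at 110 Mb, and the distal parts of both and the whole of chromosome 12 stand apart, at 0.28, -0.35 and -0.28 after LPS.

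The genes of the 27 lists that hold 10 or more genes tested are taken up in turn below, beginning with the receptor and its signalling chain. Together with the marker lists they hold 1167 distinct genes tested, of which 124 were higher and 136 lower, and 2221 of the genes called stood in no list. Counts called in a list are to be read beside the 15.1% called over all genes, 5.93% higher and 9.12% lower.

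**Figure D2:**
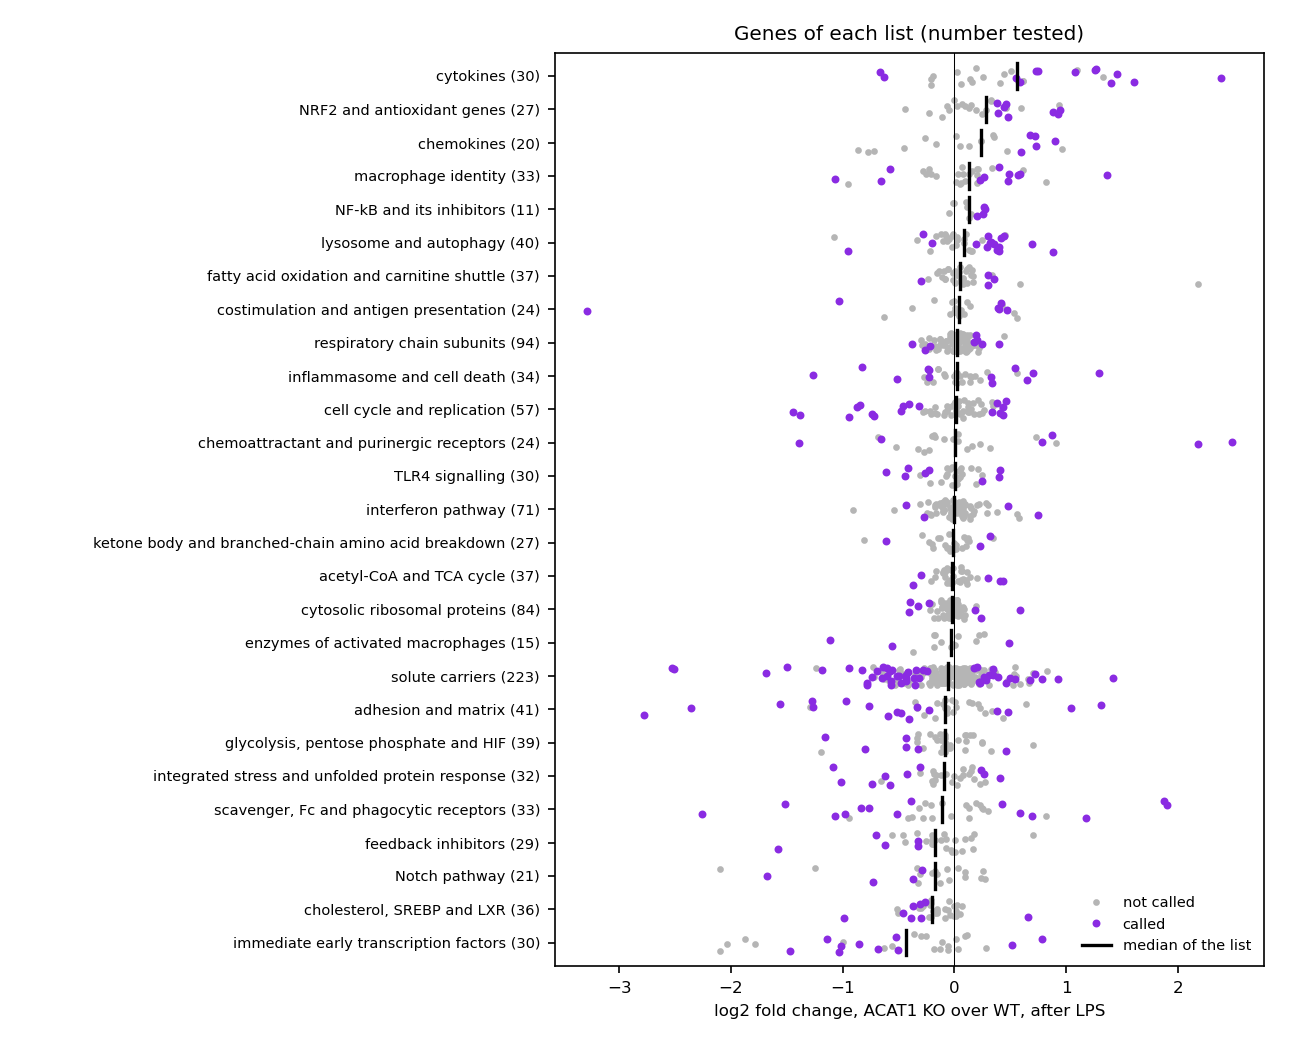
Log2 fold change of ACAT1 KO over WT after LPS for each gene of each list, with genes called in purple, other genes in grey, a black bar at the list's median and the number tested in brackets. The medians run from -0.43 for the immediate early transcription factors to 0.56 for the cytokines, and most lists hold genes called in both directions.

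At the receptor, Cd14 was higher and Tlr4 lower in ACAT1 KO cells. Cd14, which hands LPS to the receptor complex, was at 821, 862 and 891 CPM in WT and 1151, 1154 and 1087 CPM in ACAT1 KO libraries (log2 fold change 0.40, standard error 0.061, adjusted p = 0.00736). Tlr4 itself was at 22.1, 22.7 and 24.7 CPM in WT and 18.1, 20.5 and 19.4 CPM in ACAT1 KO libraries (log2 fold change -0.26, standard error 0.073, adjusted p = 0.0477). Neither gene's groups overlapped, as at 37.6% of all genes. The difference at Tlr4 was small and its call was kept in 1 of the 6 fits leaving out a library. Of the adaptors, Tirap, which bridges the receptor to MyD88, was lower at 38.96, 39.8 and 37.01 CPM in WT and 28.5, 30.5 and 26.5 CPM in ACAT1 KO libraries (log2 fold change -0.44, standard error 0.069, adjusted p = 0.00759), and Ticam2, which bridges it to TRIF, was higher (0.41, adjusted p = 0.0387). Downstream, the E3 ligase gene Traf6 was higher (0.25, adjusted p = 0.0362), while Ripk1 (-0.22, adjusted p = 0.03998), Traf3 (-0.62, adjusted p = 0.00373) and Tbk1 (-0.41, adjusted p = 0.00628) were lower. Traf3 and Tbk1, which carry the signal from TRIF to IRF3, lie on chromosome 12 and on distal chromosome 10, and Traf6 lies on distal chromosome 2. In all, 3 of the 30 TLR4 signalling genes tested were higher and 5 were lower (26.7% called, against 15.1% over all genes), with a median of 0.0049. Outside the 3 stretches 2 were higher and 3 lower.

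Genes of NF-kB moved in 1 direction where they moved at all. Of 11 subunit and I-kappa-B genes, 4 were higher and none was lower in ACAT1 KO cells (36.4% called, against 15.1% over all genes), at a median of 0.13. Nfkb2, the precursor of p52, was at 369, 407 and 361 CPM in WT and 455, 473 and 442 CPM in ACAT1 KO libraries (log2 fold change 0.27, standard error 0.065, adjusted p = 0.0306). Its partner Relb (0.20, adjusted p = 0.03603) and the inhibitors Nfkbie (0.27, adjusted p = 0.0352) and Nfkbid (0.26, adjusted p = 0.0398) were also higher. The groups did not overlap at any of these 4 genes, as at 37.6% of all genes, which adds little for genes picked by their calls. Every difference was small. None of the 4 calls was kept in all 6 fits that left out a library.

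Cytokine genes were the list with the highest median, 0.56 over the 30 tested, with 11 higher and 2 lower (43.3% called, against 15.1% over all genes). In all 6 fits that left out a library, 4 of the 11 higher calls and none of the 2 lower calls were kept. Chemokine genes followed the same direction, with 5 of 20 higher and none lower (25% called) at a median of 0.24. Promoters of some of these genes are shown here because NF-kB motifs are classically described in them. A kB motif of 10 bases, GGG and TTCC with any 3 bases between them, was searched on both strands of the 250 bases before the start of each gene in RefSeq sequences of GRCm38.p6. It was found in 3 of the 12 cytokine and chemokine promoters that were at hand for genes called higher, in 9 of the 34 at hand for all genes of both lists, and in 5.44% of 9191 promoters matched. An AP-1 motif, TGANTCA, was found in 3 of the 12 (Il1a, Il1rn and Il6), in 6 of the 34 and in 4.46% of all promoters. An interferon response motif, TTTC repeated with any 2 bases between, was found in 1 of the 12 (Edn1), in 3 of the 34 and in 2.86% of all. Windows of 100 bases are printed 5′ to 3′ on the gene's own strand with kB matches in capitals, and the lines give the promoters of Il6 (chr5:30012994-30013093), Ifnb1 (chr4:88522815-88522914, minus strand) and Cxcl2 (chr5:90903779-90903878).
Il6: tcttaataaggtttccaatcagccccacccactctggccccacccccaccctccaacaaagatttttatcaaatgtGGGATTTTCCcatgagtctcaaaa
Ifnb1: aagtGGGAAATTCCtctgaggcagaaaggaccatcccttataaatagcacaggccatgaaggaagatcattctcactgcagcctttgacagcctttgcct
Cxcl2: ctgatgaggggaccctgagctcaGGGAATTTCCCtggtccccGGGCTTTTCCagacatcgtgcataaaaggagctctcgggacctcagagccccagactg
In Cxcl2 the capitals cover 3 matches, of which a pair overlaps on opposite strands. A match is a run of letters and was not tested as a binding site.

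The interleukin-1 family differed most widely. Il1b, the secreted pyrogenic cytokine, was at 126, 240.0 and 219 CPM in WT and 652, 587 and 368 CPM in ACAT1 KO libraries (log2 fold change 1.46, standard error 0.27, adjusted p = 0.01299). Every ACAT1 KO library lay above the highest WT library. Il1a, its membrane-bound relative, was at 112, 225 and 198 CPM in WT and 472, 487 and 322 CPM in ACAT1 KO libraries (log2 fold change 1.26, standard error 0.25, adjusted p = 0.0177). Il1rn, the secreted antagonist of the same receptor, was at 142, 136 and 138 CPM in WT and 256, 228 and 207 CPM in ACAT1 KO libraries (log2 fold change 0.73, standard error 0.078, adjusted p = 0.00269). The agonists and the antagonist thus stood higher in every ACAT1 KO library. Of these 3 calls 1 was kept in all 6 fits that left out a library. Il1a and Il1b lie on distal chromosome 2 and differed by more than its median of 0.28, and Il1rn lies on chromosome 2 outside that stretch. Il18, which is made constitutively and lies on chromosome 9, went the other way, at 10.4, 14.4 and 13.5 CPM in WT and 7.79, 8.98 and 7.93 CPM in ACAT1 KO libraries (log2 fold change -0.63, standard error 0.13, adjusted p = 0.0181).

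Of the cytokine genes outside the 3 stretches, 9 were called higher and 2 lower, the latter being Il18 and Pdgfb. Il6, an acute-phase cytokine, was at 50.2, 83.5 and 91.02 CPM in WT and 257, 144 and 194 CPM in ACAT1 KO libraries (log2 fold change 1.40, standard error 0.26, adjusted p = 0.0126). Tnf, the first cytokine to be released after LPS, was at 1463, 1795 and 1833 CPM in WT and 3140.3, 2342 and 2188 CPM in ACAT1 KO libraries (log2 fold change 0.59, standard error 0.15, adjusted p = 0.0333). Il6 kept its call in all 6 fits that left out a library and Tnf in 1 of them, and the log2 fold change of Tnf without LPS was 0.71, which did not pass the test (adjusted p = 0.253). The call at Tnf also ended when the trend on exon length and GC content was removed (adjusted p = 0.0568). The related ligand gene Tnfsf9, for 4-1BB ligand, was at 146, 139 and 169 CPM in WT and 271, 247 and 247 CPM in ACAT1 KO libraries (log2 fold change 0.75, standard error 0.082, adjusted p = 0.00284). Its call was kept in all 6 fits. Lta, for lymphotoxin alpha, was low but higher in each ACAT1 KO library, at 1.47, 1.28 and 1.58 CPM in WT and 2.29, 2.01 and 2.06 CPM in ACAT1 KO libraries (log2 fold change 0.55, standard error 0.13, adjusted p = 0.0294).

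The largest fold changes among cytokines were at genes with low counts. Il10, the anti-inflammatory interleukin, was at 0.711, 0.667 and 0.698 CPM in WT and 5.804, 2.91 and 2.203 CPM in ACAT1 KO libraries (log2 fold change 2.39, standard error 0.35, adjusted p = 0.00642), which is 5.23-fold higher. Il12b, the p40 subunit shared by interleukins 12 and 23, was at 4.01, 4.398 and 3.94 CPM in WT and 22.3, 8.44 and 7.104 CPM in ACAT1 KO libraries (log2 fold change 1.61, standard error 0.40, adjusted p = 0.0321). In both genes ACAT1 KO replicate 1 was far above the other ACAT1 KO libraries, while the lowest of the 3 still lay above all WT libraries. Ebi3, the subunit that interleukin 27 is built with and that stands in no list, was at 72.7, 74.6 and 89.6 CPM in WT and 137, 148 and 134 CPM in ACAT1 KO libraries (log2 fold change 0.82, standard error 0.087, adjusted p = 0.00269). Edn1, for the vasoconstrictor endothelin 1, was at 0.784, 1.33 and 1.04 CPM in WT and 2.46, 2.31 and 1.93 CPM in ACAT1 KO libraries (log2 fold change 1.08, standard error 0.20, adjusted p = 0.0128). Ifnb1, which encodes interferon beta, was at 21.9, 33.4 and 49.2 CPM in WT and 111, 84.3 and 57.5 CPM in ACAT1 KO libraries (log2 fold change 1.27, standard error 0.31, adjusted p = 0.0312), with the lowest ACAT1 KO library close to the highest WT library. Pdgfb, a growth factor for mesenchymal cells, was lower at 592, 433 and 510.0 CPM in WT and 361, 306 and 299.8 CPM in ACAT1 KO libraries (log2 fold change -0.67, standard error 0.12, adjusted p = 0.0119). Il10 and Ebi3 kept their calls in all 6 fits that left out a library, and Il12b, Edn1, Ifnb1 and Pdgfb did not.

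Chemokine genes that passed the test were those for ligands of monocytes and neutrophils. The adjacent genes Ccl3 and Ccl4, for macrophage inflammatory proteins, were at 1207, 1518 and 1871 CPM in WT and 2782, 2395 and 2469.7 CPM in ACAT1 KO libraries for Ccl3 (log2 fold change 0.73, standard error 0.15, adjusted p = 0.0179) and at 1224, 1524 and 1874 CPM in WT and 2711, 2485 and 2205 CPM in ACAT1 KO libraries for Ccl4 (log2 fold change 0.68, standard error 0.15, adjusted p = 0.0237). Ccl2, which draws monocytes, was at 785, 1025 and 1128 CPM in WT and 1582, 1363 and 1493 CPM in ACAT1 KO libraries (log2 fold change 0.60, standard error 0.13, adjusted p = 0.0225). WT replicate 1 was the lowest library at all 3 genes, and no WT library reached any ACAT1 KO library. Cxcl2, which draws neutrophils, was at 583, 379.7 and 483 CPM in WT and 1245, 663 and 796 CPM in ACAT1 KO libraries (log2 fold change 0.90, standard error 0.24, adjusted p = 0.0392). Its groups came near to each other, between WT replicate 1 and ACAT1 KO replicate 2. Ccl6 was at 6.35, 4.86 and 8.05 CPM in WT and 10.4, 11.8 and 9.62 CPM in ACAT1 KO libraries (log2 fold change 0.72, standard error 0.17, adjusted p = 0.0296). None of the 5 chemokine calls was kept in all 6 fits that left out a library, and those of Ccl2 and Ccl4 ended without the trend on length and GC content (adjusted p = 0.0535 and 0.0621). Without stimulation, Ccl2, Ccl3, Ccl4 and Ccl6 had log2 fold changes of 0.81, 0.70, 0.71 and 0.86, close to those after LPS, and Cxcl2 had -0.031. No chemokine gene passed the test in that state. Cxcl1 (0.96, adjusted p = 0.111) and the interferon-inducible Cxcl10 (0.36, adjusted p = 0.154) did not pass the test.

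**Figure D3:**
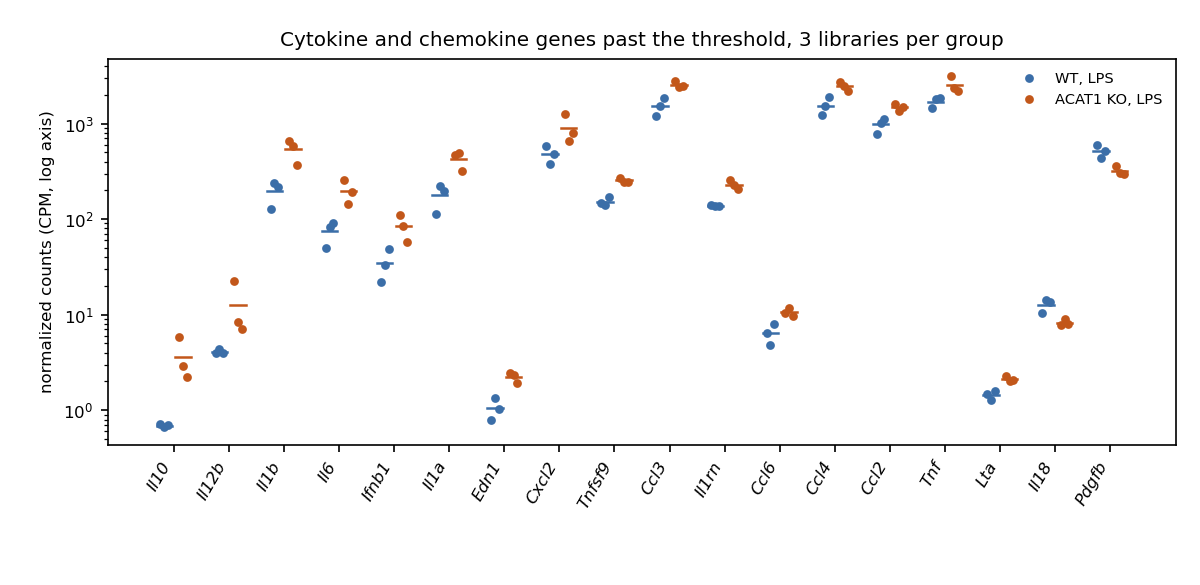
CPM on a log axis of each cytokine and chemokine gene called after LPS, in the 3 WT (blue) and 3 ACAT1 KO (orange) libraries, with a bar at each group's mean. All but Il18 and Pdgfb are higher in ACAT1 KO libraries. At no gene do the 2 groups overlap, which adds little since the genes were picked by their calls.

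Of 29 genes for inhibitors that limit the response none was higher and 5 were lower, at a median of -0.17. The share called, 17.2%, was near the 15.1% over all genes. Dusp10, a phosphatase that acts on JNK and p38, was at 4.95, 5.2 and 4.79 CPM in WT and 2.97, 2.87 and 3.33 CPM in ACAT1 KO libraries (log2 fold change -0.70, standard error 0.10, adjusted p = 0.00597). Dusp4, which acts on ERK and JNK, was at 313, 208 and 235 CPM in WT and 173, 154 and 166 CPM in ACAT1 KO libraries (log2 fold change -0.62, standard error 0.14, adjusted p = 0.0237). Socs2, a suppressor of growth hormone and cytokine signals, was below 1 CPM throughout, at 0.512, 0.613 and 0.657 CPM in WT and 0.178, 0.258 and 0.156 CPM in ACAT1 KO libraries (log2 fold change -1.58, standard error 0.23, adjusted p = 0.00659). The mRNA decay gene Zfp36l2 (-0.32, adjusted p = 0.00883) and Rc3h1, for roquin 1, which targets cytokine transcripts for decay (-0.32, adjusted p = 0.0336), completed the list of calls. The groups did not overlap at any of these 5 genes, as at 37.6% of all genes, which adds little for genes picked by their calls. Dusp10, Socs2 and Zfp36l2 kept their calls in all 6 fits that left out a library. None of the 8 ubiquitin editing genes, the gene of A20 among them, passed the test.

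Immediate early transcription factors had the lowest median of all lists, -0.43 over the 30 tested, with 2 higher and 8 lower (33.3% called, against 15.1% over all genes). This median rested in part on WT replicate 1, without which it was -0.13. Jun, the AP-1 subunit, was at 54.8, 48.4 and 47.9 CPM in WT and 33.7, 29.5 and 30.8 CPM in ACAT1 KO libraries (log2 fold change -0.68, standard error 0.077, adjusted p = 0.003102). Myc was at 25.6, 25.9 and 25.7 CPM in WT and 17.7, 18.4 and 17.7 CPM in ACAT1 KO libraries (log2 fold change -0.52, standard error 0.055, adjusted p = 0.00269), with libraries of each genotype within 1 CPM of each other. Srf, the serum response factor that drives many immediate early genes, was at 124, 109 and 104 CPM in WT and 80.02, 74.8 and 82.5 CPM in ACAT1 KO libraries (log2 fold change -0.50, standard error 0.078, adjusted p = 0.007295). These 3 genes and Egr2 (-1.14, adjusted p = 0.00721) kept their calls in all 6 fits that left out a library. Ier3, a stress-induced survival gene, was called but was set apart by WT replicate 1, at 72.1, 25.8 and 27.1 CPM in WT and 19.2, 9.92 and 15.9 CPM in ACAT1 KO libraries (log2 fold change -1.47, standard error 0.42, adjusted p = 0.0496), and kept its call in 1 fit. Fosl1 (-1.04, adjusted p = 0.0193), Fosl2 (-1.02, adjusted p = 0.0409) and Klf2 (-0.85, adjusted p = 0.03898) were lower too, with WT replicate 1 the highest library at each. The calls in the other direction were Maff, a small partner of AP-1 and NRF2 proteins, at 33.2, 27.8 and 34.9 CPM in WT and 50.2, 42.3 and 44.9 CPM in ACAT1 KO libraries (log2 fold change 0.52, standard error 0.10, adjusted p = 0.0149), and the orphan nuclear receptor gene Nr4a3, at 10.3, 12.7 and 10.98 CPM in WT and 23.7, 18.5 and 16.3 CPM in ACAT1 KO libraries (log2 fold change 0.78, standard error 0.14, adjusted p = 0.0124). Fos and Egr1 had log2 fold changes of -2.03 and -1.78 that did not pass the test (adjusted p = 0.179 and 0.206), and without WT replicate 1 the value of Egr1 was 0.0021.

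The promoter of Srf is shown for its CArG boxes, the motif that the serum response factor itself binds. A CArG box was found in 1 of the 5 promoters at hand for immediate early genes called lower, in 1 of the 18 at hand for the list, and in 1.07% of all promoters matched. The window lies on the minus strand at chr17:46556183-46556282, with both matches in capitals.
Srf: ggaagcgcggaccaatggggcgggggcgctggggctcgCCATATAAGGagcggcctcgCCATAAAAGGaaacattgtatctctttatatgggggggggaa
No AP-1 motif was found in these 5 promoters.

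Few interferon pathway genes passed the test after LPS. Of 71 tested 2 were higher and 2 lower (5.63% called), at a median of -0.0037, although Ifnb1 itself was higher. Ifih1, for the RNA sensor MDA5, had the largest difference of the 4, at 434, 644 and 699 CPM in WT and 1019.6, 1078 and 883 CPM in ACAT1 KO libraries (log2 fold change 0.75, standard error 0.17, adjusted p = 0.02396). The dynamin-like GTPase gene Gbp3 was at 319, 403 and 447 CPM in WT and 593, 523 and 516 CPM in ACAT1 KO libraries (log2 fold change 0.48, standard error 0.12, adjusted p = 0.0335). Oas2, a sensor that activates RNase L, was at 125, 158 and 149 CPM in WT and 110.2, 119 and 90.9 CPM in ACAT1 KO libraries (log2 fold change -0.43, standard error 0.12, adjusted p = 0.0419). Ifnar1, a subunit of the receptor for type 1 interferon, was at 91.6, 88.4 and 84.5 CPM in WT and 69.3, 74.3 and 74.8 CPM in ACAT1 KO libraries (log2 fold change -0.28, standard error 0.057, adjusted p = 0.0197). None of these 4 calls was kept in all 6 fits that left out a library, and WT replicate 1 had the lowest level of the list (median over genes -0.24 on the log2 scale from each gene's mean, against 0.11 and 0.12 in the other WT libraries). Without WT replicate 1 the list's median was -0.091, and without ACAT1 KO replicate 3 it was 0.075.

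Surface proteins through which macrophages speak to T cells differed in single genes. Cd28, a costimulatory receptor best known from T cells, showed the largest difference of its list, at 33.6, 18.5 and 17.7 CPM in WT and 2.23, 2.14 and 2.76 CPM in ACAT1 KO libraries (log2 fold change -3.29, standard error 0.27, adjusted p = 0.00128), and is 9.78-fold higher in WT cells. Of the 4 T cell markers tested, Cd247, a signalling chain of the T cell receptor and of Fc receptors, was the gene called, at 1.93, 1.595 and 1.61 CPM in WT and 3.14, 3.17 and 3.57 CPM in ACAT1 KO libraries (log2 fold change 0.94, standard error 0.12, adjusted p = 0.00457), which is the other direction. Havcr2, for the inhibitory receptor TIM-3, was at 41.2, 42.4 and 42.2 CPM in WT and 19.9, 25.8 and 15.8 CPM in ACAT1 KO libraries (log2 fold change -1.03, standard error 0.15, adjusted p = 0.00655). Cd86, the ligand of CD28 and CTLA-4, was at 274, 238 and 309 CPM in WT and 372, 368 and 357 CPM in ACAT1 KO libraries (log2 fold change 0.42, standard error 0.091, adjusted p = 0.0229). Pvr, for the adhesion ligand CD155, was at 239, 241 and 262 CPM in WT and 339, 317 and 325 CPM in ACAT1 KO libraries (log2 fold change 0.40, standard error 0.059, adjusted p = 0.00654). B2m, the light chain of MHC class I (0.39, adjusted p = 0.0153), and Sirpa, which receives the signal of CD47 (0.47, adjusted p = 0.0154), were higher and lie on distal chromosome 2. Cd28, Havcr2 and Pvr kept their calls in all 6 fits, and in all 4 of 24 genes were higher and 2 lower (25% called, against 15.1% over all genes).

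Receptors for antibody and for dying cells moved in both directions, with 6 of 33 genes tested higher and 8 lower (42.4% called, against 15.1% over all genes). Fcgr1, the high-affinity activating receptor for IgG, was at 87.4, 115 and 103 CPM in WT and 49.6, 54.4 and 41.6 CPM in ACAT1 KO libraries (log2 fold change -1.07, standard error 0.12, adjusted p = 0.00312). Fcgr2b, the inhibitory receptor, was at 617, 611 and 737 CPM in WT and 1001, 916 and 1044 CPM in ACAT1 KO libraries (log2 fold change 0.59, standard error 0.090, adjusted p = 0.00716). The activating Fcgr4 was lower (-0.39, adjusted p = 0.0349), so that of the Fc receptor genes called the inhibitory one was higher and the activating ones were lower. The neighbouring genes of the CD300 family on chromosome 11 fell together in ACAT1 KO cells. Cd300lb was at 26.6, 20.4 and 17.5 CPM in WT and 8.66, 7.61 and 6.19 CPM in ACAT1 KO libraries (log2 fold change -1.52, standard error 0.17, adjusted p = 0.00311), Cd300lf at 21.6, 22.8 and 24.1 CPM in WT and 13.2, 11.5 and 10.2 CPM in ACAT1 KO libraries (log2 fold change -0.98, standard error 0.10, adjusted p = 0.00254) and Cd300a at 117, 89.6 and 91.3 CPM in WT and 58.9, 52.8 and 55.1 CPM in ACAT1 KO libraries (log2 fold change -0.84, standard error 0.10, adjusted p = 0.00385). Members of this family recognise lipids of apoptotic cells. The opsonin gene Mfge8, which bridges such cells to integrins, was lower as well (-0.51, adjusted p = 0.0158).

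The scavenger receptor Marco, which binds bacteria and particles, was at 14.9, 10.3 and 18.3 CPM in WT and 61.6, 43.1 and 55.4 CPM in ACAT1 KO libraries (log2 fold change 1.88, standard error 0.21, adjusted p = 0.00301), or 3.68-fold higher. Its lowest ACAT1 KO library was far above its highest WT library. Mrc1, the mannose receptor, was low at 3.54, 2.01 and 3.57 CPM in WT and 4.81, 6.03 and 9.84 CPM in ACAT1 KO libraries (log2 fold change 1.18, standard error 0.30, adjusted p = 0.0349), with ACAT1 KO replicate 3 the highest. The C-type lectin Clec12a, an inhibitory receptor for uric acid crystals, was at 12.7, 15.5 and 14.7 CPM in WT and 26.4, 18.5 and 24.9 CPM in ACAT1 KO libraries (log2 fold change 0.70, standard error 0.14, adjusted p = 0.0162). Stab2, a scavenger receptor of endothelium, and Cd5l, a secreted lipid-binding protein, were called in opposite directions at levels under 1 CPM (1.90 and -2.26 on the log2 scale).

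Adhesion and matrix genes were more often lower, with 4 higher and 13 lower among 41 tested (41.5% called, against 15.1% over all genes). Itgb7, the beta subunit of the gut-homing integrins, was at 3.54, 2.56 and 2.69 CPM in WT and 0.504, 0.557 and 0.642 CPM in ACAT1 KO libraries (log2 fold change -2.36, standard error 0.18, adjusted p = 0.00128). Itgav, the alpha subunit of vitronectin receptors, was at 360.1, 401 and 338 CPM in WT and 169, 214 and 178 CPM in ACAT1 KO libraries (log2 fold change -0.97, standard error 0.10, adjusted p = 0.00268), and Itga6 at 14.7, 15.04 and 15.8 CPM in WT and 10.1, 10.5 and 9.63 CPM in ACAT1 KO libraries (log2 fold change -0.59, standard error 0.070, adjusted p = 0.00332). Itga5, for the fibronectin receptor, was lower (-0.51, adjusted p = 0.0116), and Itgam, for the CR3 subunit CD11b, was higher at 211, 178 and 227 CPM in WT and 293, 300.0 and 268 CPM in ACAT1 KO libraries (log2 fold change 0.48, standard error 0.092, adjusted p = 0.0147). Thus 5 integrin genes were lower and 1 was higher. F11r, for the junctional adhesion molecule JAM-A, was at 21.1, 16.7 and 17.7 CPM in WT and 2.03, 2.17 and 3.86 CPM in ACAT1 KO libraries (log2 fold change -2.78, standard error 0.24, adjusted p = 0.00138), 6.86-fold higher in WT cells. Spn, for the mucin CD43, was at 44.7, 53.4 and 60 CPM in WT and 99.8, 123 and 103 CPM in ACAT1 KO libraries (log2 fold change 1.04, standard error 0.12, adjusted p = 0.00312). Both genes were called in the same direction without stimulation, at -2.34 and 1.04.

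Of 17 protease, inhibitor and matrix genes tested 1 was higher and 7 were lower (47.1% called, against 15.1% over all genes). Of the lower genes 5 lie outside the 3 stretches. The urokinase receptor Plaur was at 479, 473 and 455 CPM in WT and 351, 361 and 302 CPM in ACAT1 KO libraries (log2 fold change -0.47, standard error 0.076, adjusted p = 0.00817) and urokinase itself, Plau, was lower (-0.33, adjusted p = 0.0227), while their inhibitor Serpinb2 was higher from a low level, at 0.272, 0.541 and 0.586 CPM in WT and 1.57, 1.07 and 0.919 CPM in ACAT1 KO libraries (log2 fold change 1.31, standard error 0.31, adjusted p = 0.02697). The collagenase gene Mmp8 was at 1.25, 1.28 and 1.14 CPM in WT and 0.294, 0.4597 and 0.477 CPM in ACAT1 KO libraries (log2 fold change -1.56, standard error 0.20, adjusted p = 0.00414). Mmp14 (-0.77, adjusted p = 0.04298), Mmp19 (-1.28, adjusted p = 0.0228) and the sheddase gene Adam8 (-0.40, adjusted p = 0.0292) were lower, and Mmp19 lies on distal chromosome 10. Thrombospondin 1, Thbs1, was lower although it lies on distal chromosome 2, at 2.06, 2.21 and 2.43 CPM in WT and 0.829, 0.807 and 1.15 CPM in ACAT1 KO libraries (log2 fold change -1.26, standard error 0.17, adjusted p = 0.00485).

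Among receptors for chemoattractants, the formyl peptide receptors that sense bacterial peptides had the largest differences. Fpr2 was at 2.01, 3.98 and 12.9 CPM in WT and 28.2, 42.9 and 37.05 CPM in ACAT1 KO libraries (log2 fold change 2.49, standard error 0.57, adjusted p = 0.0255). Fpr1, also on chromosome 17, was at 0.721, 1.298 and 3.2 CPM in WT and 9.37, 9.36 and 5.72 CPM in ACAT1 KO libraries (log2 fold change 2.18, standard error 0.46, adjusted p = 0.0207). The WT libraries of both genes spread widely, with WT replicate 3 the highest, and the log2 fold changes without stimulation were 2.40 and 2.09, neither of which passed the test. Ccrl2, a non-signalling receptor for chemerin, was at 416, 427 and 510.3 CPM in WT and 919.6, 789 and 770.4 CPM in ACAT1 KO libraries (log2 fold change 0.87, standard error 0.10, adjusted p = 0.00315), and its difference without stimulation was -0.25. Entpd1, for CD39, which degrades extracellular ATP, was lower at 15.5, 12.2 and 15.4 CPM in WT and 8.85, 9.49 and 8.94 CPM in ACAT1 KO libraries (log2 fold change -0.66, standard error 0.10, adjusted p = 0.00767). The list held 4 higher and 2 lower of 24 genes (25% called, against 15.1% over all genes).

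Enzymes of activated macrophages gave 1 higher and 2 lower calls among 15, a share of 20% against 15.1% over all genes. Acod1, which makes itaconate from an intermediate of the citric acid cycle, was at 1849, 2358 and 2355 CPM in WT and 2978, 3239 and 2990.2 CPM in ACAT1 KO libraries (log2 fold change 0.49, standard error 0.10, adjusted p = 0.0214). Nos2, the inducible nitric oxide synthase, was at 116, 70.5 and 62.8 CPM in WT and 41.4, 40.99 and 32.7 CPM in ACAT1 KO libraries (log2 fold change -1.12, standard error 0.22, adjusted p = 0.0158). WT replicate 1 was the highest library at Nos2 and the lowest at Acod1, and all ACAT1 KO libraries still lay on the other side of the other WT libraries. Neither the call at Nos2 nor that at Acod1 was kept in all 6 fits that left out a library. Ptgs1, the constitutive cyclooxygenase, was at 162, 141 and 133 CPM in WT and 94.5, 107 and 94.5 CPM in ACAT1 KO libraries (log2 fold change -0.56, standard error 0.087, adjusted p = 0.00756).

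Regulators of cell death were called in both directions, 6 higher and 6 lower of 34 (35.3% called, against 15.1% over all genes). The proapoptotic Bid, which links death receptors to mitochondria, was at 172, 163 and 151 CPM in WT and 85.7, 90.2 and 98.3 CPM in ACAT1 KO libraries (log2 fold change -0.83, standard error 0.072, adjusted p = 0.00145). Casp8, the protease that cleaves it, was at 76.5, 87.9 and 77.6 CPM in WT and 52.8, 53.7 and 62.8 CPM in ACAT1 KO libraries (log2 fold change -0.52, standard error 0.087, adjusted p = 0.00952). Bax, a pore-forming protein of the mitochondrial membrane, was higher at 141, 139 and 146 CPM in WT and 178, 178 and 181 CPM in ACAT1 KO libraries (log2 fold change 0.34, standard error 0.048, adjusted p = 0.00605). The survival genes Bcl2a1b, at 16.9, 29.99 and 43.2 CPM in WT and 75.4, 70.9 and 75.4 CPM in ACAT1 KO libraries (log2 fold change 1.29, standard error 0.28, adjusted p = 0.0213), and Bcl2l1, at 204, 206 and 245 CPM in WT and 339, 376 and 313 CPM in ACAT1 KO libraries (log2 fold change 0.65, standard error 0.094, adjusted p = 0.00642), were higher as well. Bcl2a1b has near-identical copies among which reads could be split, and Bcl2l1 and the proapoptotic Bcl2l11 (0.54, adjusted p = 0.0164) lie on distal chromosome 2. Of the inflammasome genes, Nlrc4 was higher (0.70, adjusted p = 0.02396) and the pore gene Gsdmd slightly lower (-0.23, adjusted p = 0.0374).

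Apart from Acat1 itself, the pathways that make and use acetyl-CoA differed little. In fatty acid oxidation 3 of 37 genes were higher and 1 was lower (10.8% called), at a median of 0.049. Eci2, an enoyl-CoA isomerase, was at 44.7, 48.2 and 46.4 CPM in WT and 59.3, 56.4 and 62.7 CPM in ACAT1 KO libraries (log2 fold change 0.36, standard error 0.061, adjusted p = 0.0101), and it alone of the 4 kept its call in all 6 fits that left out a library. Acaa2, a mitochondrial thiolase of fatty acid oxidation, was at 15.4, 16.9 and 16.3 CPM in WT and 12.95, 13.95 and 12.7 CPM in ACAT1 KO libraries (log2 fold change -0.30, standard error 0.071, adjusted p = 0.0298). In ketone body and branched-chain amino acid breakdown, leaving Acat1 aside, 2 of 27 genes were higher and 1 was lower (11.1% called, against 15.1% over all genes). Bcat1, the cytosolic aminotransferase of leucine, isoleucine and valine, was at 41.8, 50.5 and 43.5 CPM in WT and 27.6, 30.3 and 30.8 CPM in ACAT1 KO libraries (log2 fold change -0.61, standard error 0.085, adjusted p = 0.00538). Of 37 genes of acetyl-CoA supply and the citric acid cycle 3 were higher and 2 lower (13.5% called). Of these 5, Pdhx, Idh3b, Cs and Dlst lie on the 3 stretches and differed in the direction of their stretch. Citrate synthase, Cs, was at 278, 289 and 247 CPM in WT and 211, 208 and 209 CPM in ACAT1 KO libraries (log2 fold change -0.37, standard error 0.067, adjusted p = 0.0118). The exception was pyruvate carboxylase, Pcx, at 14.8, 17 and 17.1 CPM in WT and 19.96, 20.7 and 19.8 CPM in ACAT1 KO libraries (log2 fold change 0.30, standard error 0.074, adjusted p = 0.0307).

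In glycolysis and the hypoxia response 1 of 39 genes was higher and 5 were lower, at a median of -0.087. The share called, 15.4%, was that of all genes, 15.1%, so the list did not stand out by its count. Hif1a, the inducible subunit of the hypoxia factor, was at 164, 147 and 129 CPM in WT and 91.1, 81.04 and 80.7 CPM in ACAT1 KO libraries (log2 fold change -0.80, standard error 0.094, adjusted p = 0.00324). It lies on chromosome 12 and fell by more than that chromosome's median of -0.28. Its partner Arnt was lower too (-0.33, adjusted p = 0.0465). Ndrg1, a gene that responds to hypoxia and stress, was at 165, 101 and 72.7 CPM in WT and 60.2, 50.4 and 40.6 CPM in ACAT1 KO libraries (log2 fold change -1.16, standard error 0.28, adjusted p = 0.0289), with a wide spread between WT libraries. The hexose transporter genes Slc2a3 and Slc2a6 were called in opposite directions (-0.44 and 0.46). None of the other glycolytic enzyme genes but Hk1 (-0.43, adjusted p = 0.031) passed the test.

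Of 36 cholesterol genes tested 7 were lower and 1 was higher (22.2% called, against 15.1% over all genes). The median was -0.20, and 29 of the 36 had a negative log2 fold change. In all 6 fits that left out a library, 2 of the 7 lower calls and the higher call were kept. Sqle, the squalene epoxidase at a rate-limiting step, was at 139.7, 90.1 and 80.8 CPM in WT and 51.8, 51.6 and 52.9 CPM in ACAT1 KO libraries (log2 fold change -0.99, standard error 0.18, adjusted p = 0.0126), with WT replicate 1 far above the other WT libraries. Msmo1, a demethylase of sterol intermediates, was at 42.7, 52.1 and 46.3 CPM in WT and 34.1, 34.4 and 34.1 CPM in ACAT1 KO libraries (log2 fold change -0.46, standard error 0.077, adjusted p = 0.00944). Srebf2, which encodes the factor that drives the pathway, was at 341, 330.3 and 309 CPM in WT and 273, 274 and 248 CPM in ACAT1 KO libraries (log2 fold change -0.30, standard error 0.064, adjusted p = 0.0208). Further along the pathway Mvd, Nsdhl and Sc5d were lower, with log2 fold changes of -0.37, -0.31 and -0.26. The median was similar without stimulation, at -0.26. A sterol response motif, TCACNCCAC, was found in none of the 6 promoters at hand for the genes called lower, in 1 of the 25 at hand for the list and in 0.968% of all. Mylip, which encodes the ligase that degrades the LDL receptor and is induced by LXR, was the gene called higher, at 40.7, 38.5 and 42.4 CPM in WT and 69.7, 62.4 and 59.8 CPM in ACAT1 KO libraries (log2 fold change 0.66, standard error 0.073, adjusted p = 0.00289). Npc2, which moves cholesterol out of lysosomes, was lower and lies on chromosome 12 (-0.39, adjusted p = 0.00737).

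Of 27 antioxidant genes of the NRF2 programme 8 were higher, 6 of them outside the 3 stretches, and none was lower (29.6% called, against 15.1% over all genes), at a median of 0.28. Slc7a11, the cystine importer that feeds glutathione synthesis, was at 283, 184 and 215 CPM in WT and 547, 315 and 437 CPM in ACAT1 KO libraries (log2 fold change 0.93, standard error 0.21, adjusted p = 0.0257). Srxn1, which regenerates peroxiredoxins and lies on distal chromosome 2, was at 176, 126 and 184 CPM in WT and 378, 215 and 303 CPM in ACAT1 KO libraries (log2 fold change 0.88, standard error 0.21, adjusted p = 0.0289). Txnrd1, thioredoxin reductase, was at 819, 669 and 797 CPM in WT and 1108, 868 and 1014 CPM in ACAT1 KO libraries (log2 fold change 0.39, standard error 0.11, adjusted p = 0.0492). In these 3 genes the groups came close, and replicate 2 was the lowest library of each genotype. Prdx5, a mitochondrial peroxiredoxin, was separated more clearly, at 183, 186 and 186 CPM in WT and 242, 259 and 275 CPM in ACAT1 KO libraries (log2 fold change 0.48, standard error 0.060, adjusted p = 0.00373), and it alone of the 8 kept its call in all 6 fits that left out a library. Sod2, the mitochondrial superoxide dismutase, was at 579, 543 and 491 CPM in WT and 747, 659 and 697 CPM in ACAT1 KO libraries (log2 fold change 0.38, standard error 0.079, adjusted p = 0.019). Without ACAT1 KO replicate 1 the list's median was 0.13, and without ACAT1 KO replicate 2 it was 0.43. Without stimulation it was -0.032. Nqo1, a classical target, had a log2 fold change of -0.45 that did not pass the test (adjusted p = 0.345). An antioxidant response motif, TGACNNNGC, was found in none of the 7 promoters at hand for the genes called higher, in 5 of the 21 at hand for the list and in 12.1% of all.

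In the integrated stress response, Atf4 and some of its targets were lower. Atf4 was at 551, 406 and 377 CPM in WT and 288, 291 and 315 CPM in ACAT1 KO libraries (log2 fold change -0.58, standard error 0.13, adjusted p = 0.0254). Its targets Trib3 and Chac1 were at 31.3, 19.3 and 15.1 CPM in WT and 10.3, 9.28 and 11.2 CPM in ACAT1 KO libraries for Trib3 (log2 fold change -1.09, standard error 0.24, adjusted p = 0.0232) and at 15.4, 10.5 and 9.56 CPM in WT and 4.198, 7.001 and 6.26 CPM in ACAT1 KO libraries for Chac1 (log2 fold change -1.01, standard error 0.23, adjusted p = 0.0239), and both fell in ACAT1 KO cells although they lie on distal chromosome 2. Ddit3, for the proapoptotic factor CHOP, was lower (-0.73, adjusted p = 0.0344) and lies on distal chromosome 10. WT replicate 1 was the highest library at all 4 genes, and each call was lost in at least 3 of the 6 fits that left out a library. Nupr1, another stress-induced regulator, kept its call in all 6 fits, at 104, 125 and 116 CPM in WT and 81.2, 89.3 and 86.6 CPM in ACAT1 KO libraries (log2 fold change -0.42, standard error 0.076, adjusted p = 0.0117). In the unfolded protein response, Ern1, the sensor IRE1, was lower at 33.3, 24.04 and 25.6 CPM in WT and 17.3, 17.7 and 18.9 CPM in ACAT1 KO libraries (log2 fold change -0.62, standard error 0.12, adjusted p = 0.0147), and the chaperone gene Hspa5 was slightly higher (0.24, adjusted p = 0.0404). Of the 32 genes of both responses 3 were higher and 7 lower (31.25% called, against 15.1% over all genes), 2 and 3 of them outside the 3 stretches.

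The promoter of Chac1 holds the composite C/EBP-ATF motif, TGATGNAAN, at which ATF4 acts on such targets. It was found in 1 of the 6 promoters at hand for the genes of the list called lower, in 3 of the 24 at hand for the list and in 1.95% of all. The window lies at chr2:119351022-119351121, with the match, which reads on the other strand, in capitals.
Chac1: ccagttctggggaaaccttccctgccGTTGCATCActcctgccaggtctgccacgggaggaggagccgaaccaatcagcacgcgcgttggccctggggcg

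Of 40 genes of lysosome and autophagy 13 were higher and 3 lower (40% called, against 15.1% over all genes), and 24 of the 40 had a positive log2 fold change. Ctsc, the protease that activates granule proteases, was at 389.9, 522 and 583 CPM in WT and 1016, 934 and 804 CPM in ACAT1 KO libraries (log2 fold change 0.88, standard error 0.15, adjusted p = 0.00954). Gusb, beta-glucuronidase, was at 499, 451 and 526 CPM in WT and 635, 639 and 646 CPM in ACAT1 KO libraries (log2 fold change 0.38, standard error 0.068, adjusted p = 0.0119), and Asah1, acid ceramidase, at 147, 154 and 159 CPM in WT and 192, 186 and 187 CPM in ACAT1 KO libraries (log2 fold change 0.30, standard error 0.052, adjusted p = 0.0108). Further hydrolase genes outside the 3 stretches were higher by small amounts, Lipa (0.40), Gaa (0.35) and Neu1 (0.31). On distal chromosome 2 the cathepsin genes Ctsa and Ctsz and the autophagy gene Map1lc3a were higher (0.45, 0.40 and 0.70). Tfeb, a transcription factor that drives these genes, was low and lower in ACAT1 KO cells, at 5.35, 4.22 and 3.62 CPM in WT and 2.42, 2.01 and 2.35 CPM in ACAT1 KO libraries (log2 fold change -0.96, standard error 0.16, adjusted p = 0.00958). Its relative Mitf was higher (0.32, adjusted p = 0.0244). Outside the 3 stretches 10 were higher and 2 lower, and the list's median was 0.054 in place of 0.085.

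Several genes of the step into S phase were lower in ACAT1 KO cells. Ccne1 and Ccne2, the E-type cyclins, were at 12.5, 15.03 and 12.5 CPM in WT and 6.56, 8.51 and 9.22 CPM in ACAT1 KO libraries for Ccne1 (log2 fold change -0.72, standard error 0.14, adjusted p = 0.0142) and at 11.97, 17.9 and 13.7 CPM in WT and 6.76, 8.81 and 8.61 CPM in ACAT1 KO libraries for Ccne2 (log2 fold change -0.85, standard error 0.16, adjusted p = 0.0147). Cdc6, which loads the replicative helicase, was at 17.5, 15.5 and 14.02 CPM in WT and 7.74, 9.92 and 10.4 CPM in ACAT1 KO libraries (log2 fold change -0.74, standard error 0.13, adjusted p = 0.0102). E2f2 was at 14.7, 15.9 and 11.7 CPM in WT and 4.84, 5.34 and 5.33 CPM in ACAT1 KO libraries (log2 fold change -1.45, standard error 0.12, adjusted p = 0.00136) and the repressor E2f8 at 27.9, 32.5 and 26.6 CPM in WT and 13.5, 17.03 and 14.6 CPM in ACAT1 KO libraries (log2 fold change -0.95, standard error 0.11, adjusted p = 0.00312). These 5 genes had log2 fold changes between -0.017 and 0.25 without stimulation, where none passed the test. Ccnd2, cyclin D2, was lower in both states, at 88.5, 149 and 127 CPM in WT and 53.6, 47.8 and 38.3 CPM in ACAT1 KO libraries after LPS (log2 fold change -1.38, standard error 0.19, adjusted p = 0.00551). Pola1, the catalytic subunit of DNA polymerase alpha, was also lower in both, at 68.6, 76.2 and 60.1 CPM in WT and 34.03, 39.7 and 37.9 CPM in ACAT1 KO libraries after LPS (log2 fold change -0.88, standard error 0.097, adjusted p = 0.00289). Birc5, for survivin, was higher (0.46, adjusted p = 0.0395), as were Pcna, Gins1, Aurka, Bub1 and E2f1, which all lie on distal chromosome 2. Over the list 6 of 57 genes were higher and 11 lower (29.8% called, against 15.1% over all genes), and outside the 3 stretches 1 was higher and 8 lower. An E2F motif, TTTNNCGC, was found in 3 of the 9 promoters at hand for the genes called lower (Cdc6, Pola1 and Cdk2, the last on distal chromosome 10). It was found in 7 of the 42 at hand for the list and in 7.5% of all.

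In the Notch pathway 4 of 21 genes were lower and none higher, at a median of -0.18. The share called, 19%, was near the 15.1% over all genes, and 2 of the 4 lie on chromosome 12. The coactivator gene Maml3 was at 28.05, 30.9 and 25.6 CPM in WT and 17.3, 16.8 and 17.1 CPM in ACAT1 KO libraries (log2 fold change -0.73, standard error 0.077, adjusted p = 0.00269). The ligand gene Jag2 was at 2.52, 1.43 and 1.57 CPM in WT and 0.609, 0.436 and 0.677 CPM in ACAT1 KO libraries (log2 fold change -1.68, standard error 0.26, adjusted p = 0.00774) and is 1 of those on chromosome 12. Hes1, the main target of the pathway, had a log2 fold change of -2.10 that did not pass the test (adjusted p = 0.0632), with WT libraries at 4.03, 0.829 and 1.01 CPM and ACAT1 KO libraries at 0.693, 0.331 and 0.347 CPM.

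Genes of respiration and translation had shares of calls below the 15.1% over all genes. Of 94 respiratory chain subunits 5 were higher and 3 lower (8.51%), and of 84 cytosolic ribosomal protein genes 3 were higher and 4 lower (8.33%). Of 223 solute carrier genes 19 were higher and 32 lower (22.9%). Among these Slc40a1, ferroportin, the exporter of iron, was at 83.2, 47.9 and 102 CPM in WT and 272, 139 and 212 CPM in ACAT1 KO libraries (log2 fold change 1.42, standard error 0.30, adjusted p = 0.0215). Slc37a2, a sugar phosphate carrier of macrophages, was at 121, 105 and 99.1 CPM in WT and 49.3, 59.03 and 60.4 CPM in ACAT1 KO libraries (log2 fold change -0.95, standard error 0.10, adjusted p = 0.00269). Slc44a1, a choline transporter, was at 50.2, 44.7 and 35.1 CPM in WT and 19.5, 20.3 and 17.5 CPM in ACAT1 KO libraries (log2 fold change -1.18, standard error 0.13, adjusted p = 0.00277). The groups stood apart at each of these 3 genes, which adds little for genes picked by their calls. The amino acid transporter genes Slc7a7 (-0.60, adjusted p = 0.00312), Slc38a2 (-0.78, adjusted p = 0.0349) and Slc1a4 (-0.64, adjusted p = 0.0255) were lower, while Slc7a11, named above, was higher.

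**Figure D4:**
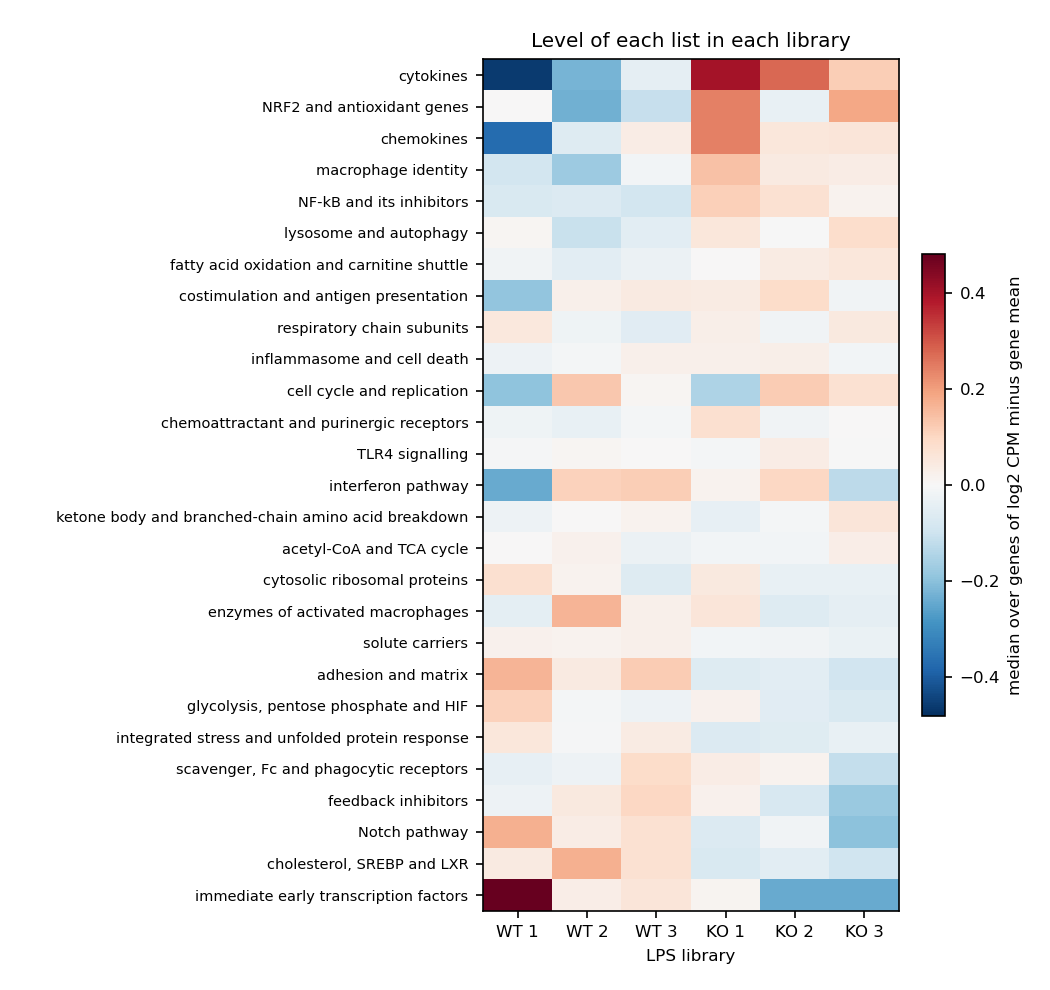
Level of each list in each of the 6 LPS libraries, as the median across the list of each gene's log2 CPM after its mean over the 6 libraries was subtracted. Cytokines are highest in ACAT1 KO replicate 1 and lowest in WT replicate 1, and the immediate early transcription factors are highest in WT replicate 1.

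Macrophage lineage genes themselves differed at some members, 8 higher and 3 lower of 33 (33.3% called, against 15.1% over all genes). Irf8, a lineage factor that also serves interferon responses, was at 49.4, 59.6 and 60.5 CPM in WT and 41.5, 35.6 and 30.6 CPM in ACAT1 KO libraries (log2 fold change -0.65, standard error 0.12, adjusted p = 0.0129). Tfec, a factor of the Mitf family found in macrophages, was at 1.53, 1.51 and 1.85 CPM in WT and 4.99, 2.94 and 4.74 CPM in ACAT1 KO libraries (log2 fold change 1.36, standard error 0.21, adjusted p = 0.00711). Spi1, for PU.1, was higher (0.26, adjusted p = 0.02398) and lies on distal chromosome 2. Aif1 was at 61.6, 57.3 and 77.4 CPM in WT and 91.4, 87.7 and 96.3 CPM in ACAT1 KO libraries (log2 fold change 0.49, standard error 0.11, adjusted p = 0.0234), and the receptor genes Csf3r (0.57, adjusted p = 0.0429) and Csf2rb (-0.57, adjusted p = 0.0498) were called in opposite directions.

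Many of the largest differences lay at genes of no list. Tgfbi, an extracellular matrix protein of macrophages, was at 15.1, 2.59 and 19.4 CPM in WT and 46.6, 139 and 89.6 CPM in ACAT1 KO libraries (log2 fold change 2.88, standard error 0.66, adjusted p = 0.0261), with WT replicate 2 far below the other WT libraries. Adamts1, a protease that cleaves versican, was at 71.6, 69.8 and 66.3 CPM in WT and 133, 127 and 159.5 CPM in ACAT1 KO libraries (log2 fold change 1.01, standard error 0.088, adjusted p = 0.00145). Gja1, for connexin 43, was at 0.867, 1.803 and 5.58 CPM in WT and 13.2, 14.8 and 9.22 CPM in ACAT1 KO libraries (log2 fold change 2.13, standard error 0.55, adjusted p = 0.0373). Ephx1, the microsomal epoxide hydrolase, was at 1.31, 0.361 and 2.904 CPM in WT and 7.24, 7.28 and 6.37 CPM in ACAT1 KO libraries (log2 fold change 2.15, standard error 0.54, adjusted p = 0.0337). Tgfbi, Gja1 and Ephx1 varied several-fold between WT libraries, whereas the libraries of each genotype at Adamts1 lay close together. Lnx1 and Pdgfra, which encodes a growth factor receptor and lies near it on chromosome 5, were at 1.33, 1.37 and 1.48 CPM in WT and 3.57, 2.91 and 3.45 CPM in ACAT1 KO libraries for Lnx1 (log2 fold change 1.24, standard error 0.13, adjusted p = 0.00254) and at 4.93, 5.48 and 5.803 CPM in WT and 10.3, 10.2 and 11.8 CPM in ACAT1 KO libraries for Pdgfra (log2 fold change 0.99, standard error 0.098, adjusted p = 0.00247). Hsd17b12, an enzyme of fatty acid elongation on distal chromosome 2, was at 153, 153 and 161 CPM in WT and 222, 219 and 211 CPM in ACAT1 KO libraries (log2 fold change 0.48, standard error 0.051, adjusted p = 0.00269).

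Among genes that were lower, As3mt, which methylates arsenic, was at 12.1, 17.9 and 9.701 CPM in WT and 0.556, 0.113 and 0.0347 CPM in ACAT1 KO libraries (log2 fold change -5.92, standard error 0.60, adjusted p = 0.00254) and had the largest log2 fold change of all genes with a mean of at least 1 CPM. It was close to absent from 2 of the 3 ACAT1 KO libraries. Gramd4 was at 8.65, 4.67 and 5.75 CPM in WT and 0.525, 0.548 and 0.425 CPM in ACAT1 KO libraries (log2 fold change -3.66, standard error 0.26, adjusted p = 0.00115). Acap1, which acts on the GTPase ARF6, was at 41.3, 25.02 and 27.4 CPM in WT and 6.05, 6.36 and 5.59 CPM in ACAT1 KO libraries (log2 fold change -2.38, standard error 0.18, adjusted p = 0.00128). Both were called in the same direction without stimulation, at -2.10 and -2.35. Dusp18, a dual-specificity phosphatase, was at 6.17, 5.66 and 6.33 CPM in WT and 1.69, 1.55 and 1.72 CPM in ACAT1 KO libraries (log2 fold change -1.87, standard error 0.10, adjusted p = 3.79e-04). Tns1, for the adhesion protein tensin 1, was at 3.53, 3.97 and 3.703 CPM in WT and 1.01, 0.661 and 0.876 CPM in ACAT1 KO libraries (log2 fold change -2.15, standard error 0.16, adjusted p = 0.00128). Nol4l was at 9.27, 9.72 and 8.15 CPM in WT and 3.11, 3.43 and 3.04 CPM in ACAT1 KO libraries (log2 fold change -1.50, standard error 0.10, adjusted p = 0.001098) and fell although it lies on distal chromosome 2. Tmem176b, for a membrane protein of myeloid cells, was at 275, 255 and 257 CPM in WT and 148, 155 and 162 CPM in ACAT1 KO libraries (log2 fold change -0.76, standard error 0.058, adjusted p = 0.00128). Plekhg3 and Serpina3h, both on chromosome 12, were lower, with log2 fold changes of -2.34 and -2.38, well past that chromosome's median.

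Set beside the unstimulated cells, most differences pointed the same way. Without stimulation 314 of 16440 genes (1.91%) passed the test, and the libraries spread more widely there (common biological coefficient of variation 0.285 against 0.108), so that the smaller count does not show smaller differences. Of 2380 genes called after LPS and tested in both states, 2114 had the same sign without stimulation. The number called in both states was 228, of which 227 had the same direction. The lists that lay farthest from equal medians were the interferon pathway, at -0.52 without stimulation and -0.0037 after LPS, and the cytokines, at 0.063 over the 22 genes tested there and 0.56 over 30 after LPS. These 2 cytokine medians cover unlike sets of genes, and the median interaction of the cytokines was 0.39.

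**Figure D5:**
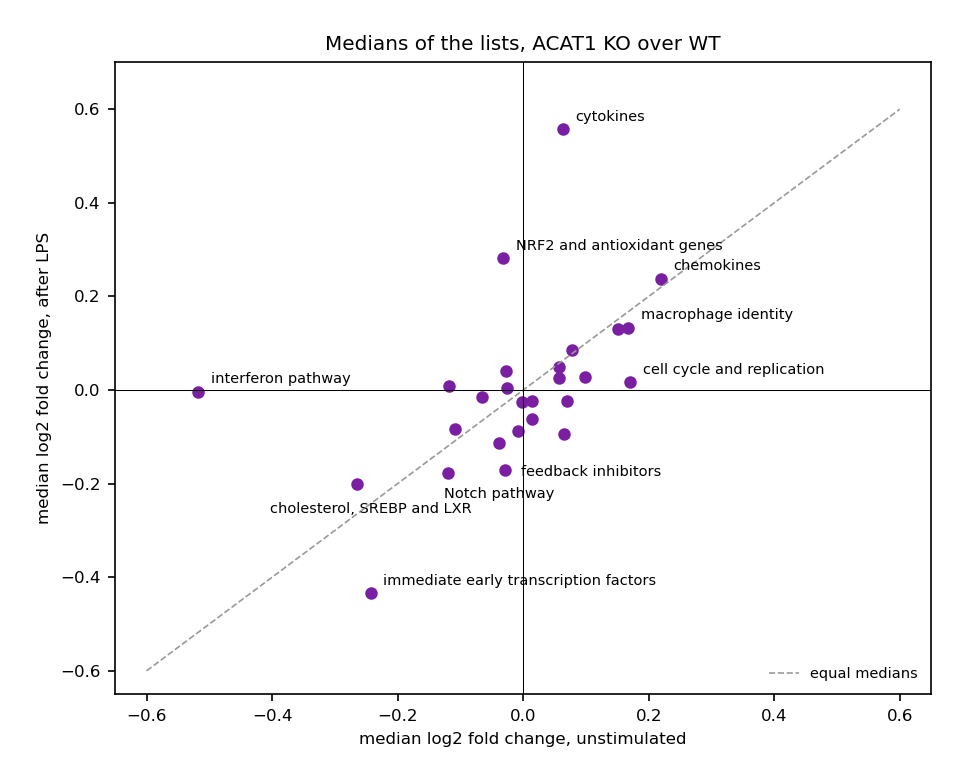
Median log2 fold change of ACAT1 KO over WT for each list without stimulation (x axis) and after LPS (y axis), with a dashed line where both are equal. Cytokines lie above the line, at 0.56 after LPS, the interferon pathway lies above it with an unstimulated value of -0.52, and cholesterol genes lie below 0 in both states. Each median covers the genes tested in its state, 22 and 30 for the cytokines and 14 and 20 for the chemokines, without stimulation and after LPS.

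Whether a genotype difference itself changed with LPS was tested as an interaction over 16535 genes. In 31 genes (0.187%) it passed, 8 with a positive and 23 with a negative term. With the cell line as a block, which rests on the replicate numbers pairing the libraries of both states, 288 genes (1.74%) passed, 138 positive and 150 negative. Without replicate 1 of all groups 3 positive and 2 negative genes were left, and without replicate 2 or without replicate 3 none, with 365 positive and 508 negative genes at an unadjusted p under 0.05 without replicate 2 and 465 and 576 without replicate 3. E2f2 had a log2 fold change of -1.45 after LPS and -0.017 without it (interaction -1.44, adjusted p = 0.00441). Fam214b, which is at 36.7, 32.7 and 32.3 CPM in WT and 14.6, 17.8 and 14.9 CPM in ACAT1 KO libraries after LPS (-1.10), had 0.17 without it (interaction -1.29, adjusted p = 0.00441). Irf8 was higher without LPS (0.55, adjusted p = 0.0175) and lower after it (interaction -1.22, adjusted p = 0.0195). The kinase gene Tec was at 78.8, 69.3 and 78.5 CPM in WT and 46.3, 48.4 and 42.6 CPM in ACAT1 KO libraries after LPS (-0.72), and at 0.081 on the log2 scale without it (interaction -0.82, adjusted p = 0.0323). Of the genes that went the other way, Mylip had 0.66 after LPS and -0.59 without it (interaction 1.23, adjusted p = 0.0333), and Ttc39c, at 16.7, 13.8 and 21.02 CPM in WT and 45.99, 39.9 and 39.1 CPM in ACAT1 KO libraries after LPS, had 1.28 and -0.040 (interaction 1.31, adjusted p = 0.0323). The interferon pathway held the most genes that passed with the line as a block, 36 of 71, all with a positive term and 24 of them among the 34 antiviral effectors, and without the block Gbp7 alone passed. In the same list 15 genes were lower and none was higher without LPS, and the median interaction was 0.55. In the cytokine list 5 genes passed with the line as a block and none without it, namely Tnfsf9, Il1b, Il1rn and Pdgfb, with block-adjusted p = 0.0172, 0.0364, 0.0359 and 0.00776, and Tnfsf13b, for the B cell survival factor BAFF, chosen here after its value was seen, at 0.0336.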

How the data were processed

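RNA of 12 libraries was sequenced, and 6 libraries after LPS, 3 WT and 3 ACAT1 KO, are compared here. According to the submitters' processing notes, reads were trimmed with Trimmomatic 0.33, aligned to GRCm38 with HISAT2 and quantified with StringTie. The authors deposited 1 table per state that holds raw, whole-number counts of each gene. The step that gave whole counts and its use of strand are not given in the sources used here. The tables also hold 12 log2 columns made by the authors and columns of their own comparison, which were not used. The first entry of each gene identifier was kept, and the 57 repeated entries after LPS were identical to it.

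Counts were filtered with filterByExpr, normalized by TMM and tested with the two-sided quasi-likelihood test of edgeR 4.0.16 in R 4.3.3 over all genes, with Benjamini-Hochberg adjustment over all of them and a threshold of 0.05. CPM values are TMM-normalized. Unstimulated libraries were fitted in the same way, and the interaction was fitted over all 12 libraries. Gene lists are given by counts and medians without a set test. The members and lists were chosen with earlier results of these data known. Genes named are Acat1, Stat2, Irf3, Ifnb1, Tnf, Cxcl10, in each direction the 10 called genes of smallest adjusted p and the 10 of largest log2 fold change (mean of at least 1 CPM), the 6 genes of each list with the smallest p and the whole of its small roles, 3 genes of each outlying chromosome, and the 5 genes with the smallest interaction p in each direction. Not all of them are described, and some genes that the rule names are not reported here.

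The labels give the same replicate numbers in all groups. Over 11961 genes with a mean of at least 1 CPM, the deviations of libraries with the same number and genotype in both states correlated at 0.139 to 0.454, and those of other numbers at -0.344 to 0.0976. Over all 16535 genes the lowest correlation of the same number was 0.0913. In ACAT1 KO cells, replicates 2 and 3 correlated at only 0.139 and 0.175 across states. The line was also used as a block for the interaction, a pairing that is inferred from the data and uncertain. After LPS, WT and ACAT1 KO libraries of the same number correlated at -0.108 to 0.173, which overlaps the range for the same line across states. On simulated counts for this comparison, 185 of 200 changed genes among 16483 were called by edgeR, and 4.64% of its calls were unchanged genes. The planted log2 changes were all at least 1 in size, and counts were drawn independently at the trended dispersion. Shifted chromosomes and an outlying library were not simulated. The real calls had a median size of 0.47, so these shares do not carry over to them. Exons and gene positions are from the GENCODE annotation of GRCm38, and promoter sequences from RefSeq (GRCm38.p6), for genes whose RefSeq start lies within 500 bases of the annotated start. The alternatives were DESeq2 1.42.0, voom of limma 3.58.1, other normalizations and filters, the replicate block, length and GC offsets, all 12 libraries in a single fit, each library left out, and chromosome 12 and distal chromosome 2 left out. Leaving out distal chromosome 10 as well was chosen after the data were seen.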

Additional observations from a re-analysis of the deposited data

Results flagged for a closer look

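The difference between ACAT1 KO and WT cells was itself different after LPS from that without stimulation at the following genes, by the interaction term of edgeR's quasi-likelihood test at a Benjamini-Hochberg adjusted p under 0.05. Among 16535 genes 31 (0.187%) passed, 8 with a positive and 23 with a negative term. Only a part of them is given here, so the balance of directions below is not that of all 31. Every interaction is on the log2 scale, as the difference after LPS minus that without it.

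The term was negative for E2f2 (-1.44), Fam214b (-1.29), Irf8 (-1.22), E2f8 (-1.01), Tec (-0.82), Slc49a4 (-0.77) and Myc (-0.54). At E2f2, E2f8, Myc, Tec and Fam214b the genotypes differed after LPS and did not pass the test without it, while Irf8 passed in both states with opposite signs. Slc49a4, a gene for a transporter of the lysosomal membrane, had log2 fold changes of -0.19 after LPS (adjusted p = 0.0741) and 0.57 without it (adjusted p = 0.0515).

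The term was positive for Ttc39c (1.31), Mylip (1.23), Pdgfra (1.22), Gbp7 (1.21) and Gadd45b (1.08). Gbp7, for an interferon-induced GTPase, was lower without LPS (-1.32, adjusted p = 0.0206) and had a log2 fold change of -0.093 after it, at 166, 214 and 223 CPM in WT and 207, 189.8 and 169.6 CPM in ACAT1 KO libraries there. Gadd45b, a stress-induced gene of the NF-kB response, had -0.95 without LPS and 0.16 after it, and neither passed the test. Without replicate 2 or without replicate 3 of all groups no gene passed.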

How the results depend on the processing

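The number of higher calls, 977, became 626 without chromosome 12 and distal chromosome 2, 590 without distal chromosome 10 as well, 650 with all 12 libraries in a single fit, and 290 to 915 when a library was left out. The 1504 lower calls became 577 to 1404 when a library was left out and stayed within 1.5 times otherwise. DESeq2 gave 1325 higher and 1773 lower calls, and length and GC offsets gave 1153 and 1085. With the replicate number as a block 839 were higher and 1391 lower. Whether WT and ACAT1 KO libraries of the same number were paired is not settled by their correlations of -0.108 to 0.173. Of 207 genes named, 83, 88 and 76 lost their calls without ACAT1 KO replicates 1, 2 and 3, and 15, 62 and 23 without WT replicates 1, 2 and 3, with the same direction except at Egr1 (-2.55 to 0.0021). Length and GC offsets ended 20 of these calls and the replicate block 21. Fewer libraries are tested when a library is left out, and the other causes were not tested.

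The interaction gave 138 positive and 150 negative genes with the line as a replicate block, 141 and 192 with DESeq2, and 0 to 3 positive and 0 to 2 negative genes without a replicate number.

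Upper-quartile normalization moved the median of all genes to 0.025. It gave list medians of 0.034 for TLR4 signalling, 0.056 for inflammasome and cell death, 0.079 for fatty acid oxidation, 0.0068 for acetyl-CoA and TCA cycle, -0.064 for the stress responses and -0.031 for solute carriers, and chromosome medians of 0.031, 0.023, 0.030, 0.021, 0.029, -0.022, -0.25, 0.018, 0.049, 0.055, 0.032 and 0.047 for chromosomes 4, 5, 7, 8, 9, 10, 12, 14, 16, 17, 18 and 19. Length and GC offsets gave 0.072 for TLR4 signalling, 0.20 for NF-kB, 0.084 for inflammasome and cell death, 0.095 for fatty acid oxidation, 0.028 for acetyl-CoA and TCA cycle, -0.021 for glycolysis, -0.14 for cholesterol, -0.058 for the stress responses, -0.035 for the respiratory chain and 0.0044 for solute carriers, the last with its sign reversed. All 12 libraries in a single fit gave -0.016 for TLR4 signalling, -0.073 for chemoattractant receptors and -0.082 for solute carriers. Solute carriers were at -0.048 with limma-voom, -0.046 with at least 10 counts in every library and -0.047 with the replicate block. Without chromosome 12 and distal chromosome 2 the medians were -0.19 for scavenger and Fc receptors, -0.0048 for the stress responses and 0.029 for lysosome and autophagy. With distal chromosome 10 left out too they were -0.19 for scavenger and Fc receptors and, reversed, 0.016 for the stress responses.

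When a library was left out, medians ranged from -0.014 to 0.029 for TLR4 signalling, -0.53 to -0.13 for immediate early factors, -0.12 to 0.016 for enzymes of activated macrophages, -0.0060 to 0.052 for inflammasome and cell death, -0.20 to -0.017 for scavenger and Fc receptors, -0.15 to -0.091 for adhesion and matrix, -0.088 to 0.058 for chemoattractant receptors, 0.048 to 0.090 for fatty acid oxidation, -0.030 to 0.0035 for acetyl-CoA and TCA cycle, -0.25 to -0.13 for cholesterol, 0.13 to 0.43 for NRF2, -0.24 to -0.092 for Notch and -0.059 to -0.034 for solute carriers. The signs of the cytokine and chemokine medians were kept in all of these fits, at 0.42 to 0.70 and 0.14 to 0.35. Genes with too few counts for the filter were not tested.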

Other observations

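Roles within a list differed in their counts. Among cell cycle genes, 1 of the 15 cyclins and inhibitors tested was higher and 7 were lower (53.3% called, against 15.1% over all genes). Of the 20 mitotic genes 3 were higher and none was lower (15%). Among the glycolysis and hypoxia genes, 3 of 8 hypoxia factor genes were lower (37.5%). Of 24 glycolysis genes 1 was higher and 2 were lower (12.5%), and none of 7 pentose phosphate genes passed the test.

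Some of the genes with the largest or clearest differences belong to no common group. Sowahc, an ankyrin repeat gene, was at 29.2, 33.9 and 36.9 CPM in WT and 63.01, 61.3 and 69.5 CPM in ACAT1 KO libraries (edgeR, log2 fold change 0.95, standard error 0.094, adjusted p = 0.00247). Ube2q2, a ubiquitin-conjugating enzyme, was at 116, 114 and 116 CPM in WT and 182, 161 and 171 CPM in ACAT1 KO libraries (log2 fold change 0.57, standard error 0.058, adjusted p = 0.00254). Libraries of the same genotype lay close together at both. Col18a1, whose collagen product is cleaved to endostatin, was at 0.679, 0.279 and 1.45 CPM in WT and 3.63, 3.53 and 4.09 CPM in ACAT1 KO libraries (log2 fold change 2.17, standard error 0.44, adjusted p = 0.0183). Atp9a, a lipid flippase gene on distal chromosome 2, was at 0.554, 0.0361 and 1.12 CPM in WT and 4.597, 4.32 and 4.43 CPM in ACAT1 KO libraries (log2 fold change 2.89, standard error 0.64, adjusted p = 0.0235). At both of these the WT libraries spread widely, with WT replicate 2 the lowest.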
